A study of Homo sapiens with 4 samples.

Results

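The genes described here are 10 negative regulators of SMAD signalling, chosen by name: SMAD7, SMAD6, PMEPA1, SKIL, SKI, SMURF1, SMURF2, TGIF1, BAMBI and LDLRAD4. All 10 were among the 25609 genes of the deposited table. They were measured by sequencing of total RNA from HK2 cells, immortalised epithelium of the adult human proximal tubule. The series holds 4 libraries of wild-type cells, 2 treated with TGF-β1 (transforming growth factor β1) and 2 controls. The TGF-β1 cells had 24 h without serum and then 20 ng/mL TGF-β1 for 24 h, and for the final 20 h the medium also held 100 μM 4-thiouridine, a uridine analogue taken up into new RNA. The same protocol text stands with all 4 samples, and controls are set apart by title and treatment label, so they are assumed here to have received all of it but TGF-β1. A cell line is a single immortalised population, and the labels number the replicates without naming separate cultures, so the p-values here rest on the spread between these libraries alone, and that spread may be technical.

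TGF-β and its relatives bind a pair of serine/threonine kinase receptors, which phosphorylate SMAD2 and SMAD3 (TGF-β, activin) or SMAD1, SMAD5 and SMAD9 (BMP). These join SMAD4 and regulate genes in the nucleus. The pathway is restrained at several steps. SMAD6 and SMAD7, the inhibitory SMADs, act at the receptors, and SMAD7 brings the ubiquitin ligases SMURF1 and SMURF2 to them. PMEPA1 and its relative LDLRAD4 are membrane proteins that sequester SMAD2 and SMAD3, and BAMBI is a receptor-like protein without a kinase domain. SKI, SKIL (SnoN) and TGIF1 are nuclear corepressors that bind SMAD complexes and recruit histone deacetylases. Several of these genes are themselves targets of SMAD3 and so form feedback loops. In tubular epithelium TGF-β signalling is known for matrix production and loss of epithelial features.

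The starts of these genes are shown because SMAD complexes are known to bind short GC-rich or AGAC-containing words in promoters. RefSeq (GRCh38.p14) gave 28 promoter windows for 9 of the 10 genes, each of 300 bases from 250 before a transcript start to 50 after it; SKI was not among them. The words searched, 4 in all, were read on both strands. They were the SMAD-binding palindrome GTCTAGAC, the shorter SMAD word CAGAC, the element GGCGCC known to bind SMADs and the AP-1 site TGANTCA. No 2 matches overlap in the windows printed. Capitals mark the matches in these 5 windows. They belong to the 4 genes of the 10 with the greatest response to TGF-β1 and to SMAD6. Among the 28 windows the palindrome stood only in that of SMAD6, and sequence outside the windows was not searched. For SMAD7 the window shown is the farthest upstream of 3, and for PMEPA1 it is the 1 of 4 with the most matches.
SMAD7: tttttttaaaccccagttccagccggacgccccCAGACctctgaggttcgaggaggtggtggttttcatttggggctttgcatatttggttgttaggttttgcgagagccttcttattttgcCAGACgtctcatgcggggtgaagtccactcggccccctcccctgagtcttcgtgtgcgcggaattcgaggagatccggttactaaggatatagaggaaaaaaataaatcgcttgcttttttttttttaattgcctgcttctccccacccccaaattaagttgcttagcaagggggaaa
SMAD6: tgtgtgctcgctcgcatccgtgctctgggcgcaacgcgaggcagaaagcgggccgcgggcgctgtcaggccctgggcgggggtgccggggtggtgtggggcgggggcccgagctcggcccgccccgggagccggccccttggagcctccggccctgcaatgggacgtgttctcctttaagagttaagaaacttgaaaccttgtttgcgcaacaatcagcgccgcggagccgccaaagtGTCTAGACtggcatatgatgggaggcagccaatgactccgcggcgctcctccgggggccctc
PMEPA1: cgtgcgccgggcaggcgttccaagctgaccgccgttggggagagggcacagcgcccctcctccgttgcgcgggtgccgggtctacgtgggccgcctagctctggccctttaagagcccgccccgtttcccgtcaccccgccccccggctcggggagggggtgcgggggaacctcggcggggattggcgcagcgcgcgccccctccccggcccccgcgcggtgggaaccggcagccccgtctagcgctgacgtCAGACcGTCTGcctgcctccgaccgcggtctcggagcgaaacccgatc
BAMBI: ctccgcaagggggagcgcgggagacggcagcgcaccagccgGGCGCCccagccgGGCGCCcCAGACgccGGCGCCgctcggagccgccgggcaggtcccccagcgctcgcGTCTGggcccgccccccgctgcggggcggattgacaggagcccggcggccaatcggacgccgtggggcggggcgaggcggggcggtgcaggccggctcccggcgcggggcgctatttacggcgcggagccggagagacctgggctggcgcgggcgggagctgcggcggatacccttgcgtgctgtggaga
SKIL: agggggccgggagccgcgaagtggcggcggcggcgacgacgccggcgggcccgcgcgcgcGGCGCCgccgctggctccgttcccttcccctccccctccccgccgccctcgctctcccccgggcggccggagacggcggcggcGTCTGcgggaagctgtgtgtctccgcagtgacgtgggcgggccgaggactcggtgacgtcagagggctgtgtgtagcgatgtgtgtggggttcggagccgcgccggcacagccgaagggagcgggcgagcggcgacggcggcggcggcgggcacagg
The windows lie at chr18:48950916-48951215 on the minus strand (SMAD7), chr15:66701986-66702285 on the plus strand (SMAD6), chr20:57709966-57710265 on the minus strand (PMEPA1), chr10:28677271-28677570 on the plus strand (BAMBI) and chr3:170357465-170357764 on the plus strand (SKIL). SMAD6 held the palindrome with its first base at -12 from the start, and 0.202% of all 35116 windows of this length hold it. In the PMEPA1 window 2 copies of CAGAC in opposite orientation began 2 and 8 bases after the first transcribed base. BAMBI held GGCGCC 3 times, at -209, -196 and -181, and CAGAC at -189 and -140. SKIL held 1 of each, at -190 and -107, and SMAD7 held CAGAC at -217 and -128. CAGAC occurs in 45.3% of all windows, GGCGCC in 19.2% and TGANTCA in 7.71%, and 20, 4 and 3 of the 28 windows of these genes held them. TGIF1 and LDLRAD4 have 7 and 9 of the 28 windows, and CAGAC stood in 5 and 6 of those. Some windows of the same gene overlap, and the counts were not tested against the shares of all windows. Levels summed over a gene do not show which start was used, and a match in a window is a description of its letters.

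Levels are RPKM (reads per kilobase of exon, scaled by the authors to a library size). They can be compared between libraries. Between genes, the comparison depends on the exon length used for each. The reads recovered from the values summed to 4629456 and 5440187 in the TGF-β1 libraries, against 3330021 and 4791914 in the controls. Fold differences are ratios of group means of RPKM, and log2 fold changes are limma estimates on log2(RPKM + 0.5), which understate the change of weakly expressed genes. The test covered the 16590 genes that averaged 0.5 RPKM or more, 9 of the 10 regulators among them, and an adjusted p below 0.05 after Benjamini-Hochberg adjustment over all of them counts as a call. By that rule 5 of the 9 regulators rose (PMEPA1, SMAD7, BAMBI, SKIL and SMURF1) and 0 fell. Among all genes tested 9.12% were called, 6.12% higher and 3% lower with TGF-β1. The median log2 fold change of the 9 was 0.99, against 0.03 for all genes tested. In 7 of the 9, both TGF-β1 libraries lay above both controls, as they did in 29.5% of all genes tested, and the groups stood apart in either direction in 54.1%. These counts describe the list and do not test it. In bulk RNA, fewer cells of a kind and less RNA per cell cannot be told apart. Scaling to the total of recovered reads in a library lowered the median of all genes by 0.15 on the log2 scale, and 5 of the 9 regulators were still called, all of them higher.

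**Figure D1:**
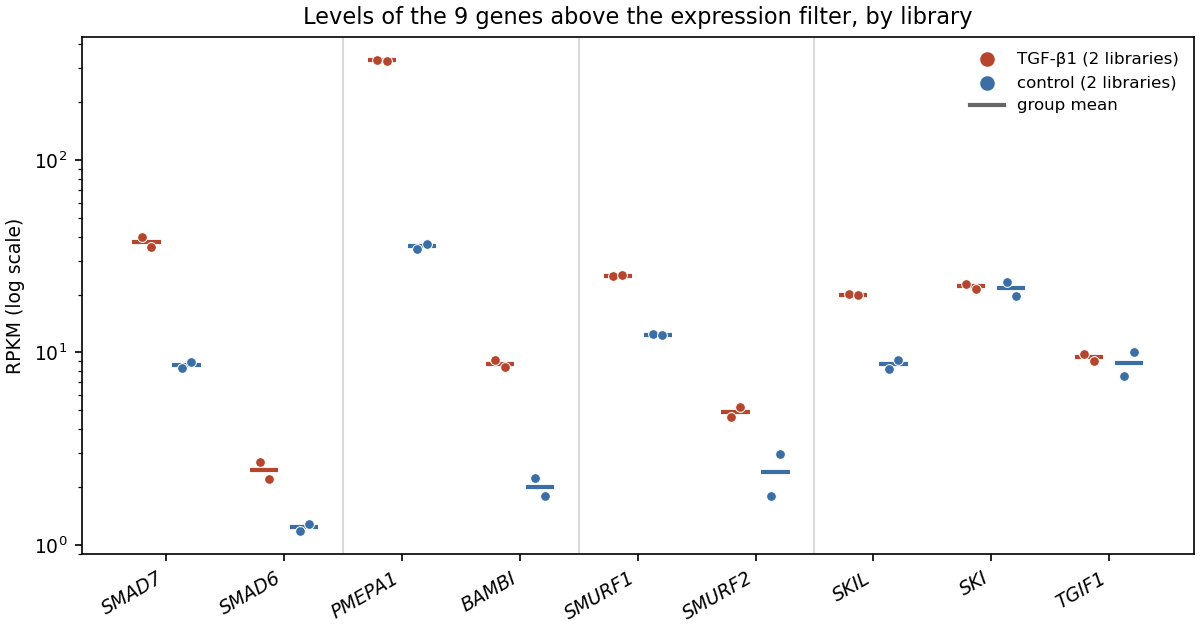
Level in RPKM (log axis) of the 9 regulators above the expression filter in each of the 2 TGF-β1 libraries (red) and the 2 control libraries (blue), with a bar at each group mean. The groups stand apart for SMAD7, SMAD6, PMEPA1, BAMBI, SMURF1, SMURF2 and SKIL and overlap for SKI and TGIF1; LDLRAD4, with 0 to 3 reads per library, is not drawn.

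SMAD7 (ENSG00000101665.8; hg38 chromosome 18, 48919853 to 48952052, minus strand), which blocks type I receptors of both branches, had 39.98 and 35.2 RPKM in the TGF-β1 libraries, against 8.35 and 8.96 RPKM in the controls. The treated libraries were far above the controls, and the groups did not overlap. The means were 37.6 ± 3.4 RPKM with TGF-β1 and 8.65 ± 0.43 RPKM in controls (SD, n = 2 each), a 4.34-fold difference. The values rest on 613 and 611 reads with TGF-β1 and 104 and 155 reads in controls. On the log2 scale this was 2.05 (standard error 0.10, 95% interval 1.80 to 2.31, adjusted p = 0.0016, limma), above 99.5% of all genes tested. The exon length of SMAD7, 3692 bases, was inferred from the values because the annotation used here holds another version of the gene.

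SMAD6 (ENSG00000137834.14; chromosome 15, 66702228 to 66782848, plus strand), the inhibitory SMAD best known for restraining BMP signals, was far less abundant. It had 2.68 and 2.19 RPKM with TGF-β1 and 1.19 and 1.28 RPKM in controls, on 95 and 88 reads with TGF-β1 and 34 and 51 reads in controls. The groups did not overlap, but the difference did not pass (log2 fold change 0.76, 95% interval 0.22 to 1.29, adjusted p = 0.0962, limma). With limma-voom on the recovered reads it did pass (log2 fold change 0.93, adjusted p = 0.000797). The SMAD7 to SMAD6 ratio within a library, which does not depend on library scaling, was 14.9 and 16.0 with TGF-β1 and 7.03 and 7.003 in controls. SMAD7 was thus the main inhibitory SMAD transcript in all 4 libraries.

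PMEPA1 (ENSG00000124225.15; chromosome 20, 57648392 to 57711536, minus strand), which binds SMAD2 and SMAD3 away from the receptor, was the most abundant of the 10 in every library. It had 330 and 328 RPKM with TGF-β1 and 34.6 and 36.7 RPKM in controls. The replicates nearly coincided, at 329 ± 1.0 RPKM with TGF-β1 and 35.6 ± 1.5 RPKM in controls (SD, n = 2 each), a 9.24-fold difference. Its log2 fold change, 3.19 (95% interval 3.04 to 3.34, adjusted p = 0.000268, limma), was above 99.9% of all genes tested. The PMEPA1 to SMAD7 ratio was 8.25 and 9.33 with TGF-β1 and 4.14 and 4.09 in controls, so the PMEPA1 response was the larger of the 2 in these libraries (exact permutation p = 0.333, two-sided, the smallest that 2 against 2 libraries allow).

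NKILA, a long non-coding RNA on the opposite strand whose exons share 343 bases with those of PMEPA1, had 16 and 32 reads with TGF-β1 and 2 and 7 reads in controls (log2 fold change 1.44, adjusted p = 0.0691, limma). The library kit preserves strand, but nothing read here states whether the counting used it. Against the 7699 and 8685 reads of PMEPA1 with TGF-β1 and its 658 and 968 reads in controls, the reads of NKILA are few.

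LDLRAD4 (ENSG00000168675.18; chromosome 18, 13217498 to 13652755, plus strand), the relative of PMEPA1, had 1 and 3 reads with TGF-β1 and 0 reads in both controls. The exact Poisson interval (95%, two-sided) of a count of 0 reaches 3.69 reads, and those of 1 and 3 reads begin at 0.0253 and 0.619, so no difference was detectable at this depth. The gene lay below the expression filter and was not tested. Its 9 promoter windows held CAGAC in 6.

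BAMBI (ENSG00000095739.10; chromosome 10, 28677342 to 28682939, plus strand), the pseudoreceptor, had 9.10 and 8.40 RPKM with TGF-β1 and 2.23 and 1.79 RPKM in controls. The means were 8.75 ± 0.50 RPKM with TGF-β1 and 2.01 ± 0.31 RPKM in controls (SD, n = 2 each), 4.35-fold apart and without overlap. The log2 fold change was 1.88 (95% interval 1.49 to 2.28, adjusted p = 0.00496, limma). Its exons are short (2314 bases), and the values rest on 87 and 91 reads with TGF-β1 and 17 and 19 reads in controls. The exact Poisson intervals (95%, counting error only) were 69.7 to 107 and 73.3 to 112 reads with TGF-β1, against 9.90 to 27.2 and 11.4 to 29.7 reads in controls. BAMBI thus had a response close in size to that of SMAD7 from a much lower level.

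SMURF1 (ENSG00000198742.9; chromosome 7, 99027438 to 99144100, minus strand), a HECT-type ubiquitin ligase that marks receptors and SMADs for degradation, had 24.9 and 25.2 RPKM with TGF-β1 and 12.4 RPKM in both controls. The replicates were tight and the groups did not overlap. The difference was 2.02-fold (log2 fold change 0.99, 95% interval 0.79 to 1.18, adjusted p = 0.00407, limma). TRRAP, on the opposite strand, shares 735 exonic bases with SMURF1 and had 7.16 and 8.20 RPKM with TGF-β1 and 7.04 and 7.11 RPKM in controls (adjusted p = 0.629, limma).

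SMURF2 (ENSG00000108854.15; chromosome 17, 64542295 to 64662068, minus strand), its close relative, had 4.61 and 5.20 RPKM with TGF-β1 and 1.80 and 2.98 RPKM in controls. The 2.05-fold difference in means was like that of SMURF1, but the controls were farther apart, on 42 and 97 reads, and it did not pass (log2 fold change 0.93, 95% interval 0.32 to 1.55, adjusted p = 0.0844, limma). It passed without control replicate 2 (log2 fold change 1.23, adjusted p = 0.038) and with limma-voom (0.99, adjusted p = 4.2e-05), and without control replicate 1 it was 0.63 (adjusted p = 0.137). The SMURF1 to SMURF2 ratio was 5.39 and 4.84 with TGF-β1 and 6.90 and 4.15 in controls, so the groups overlapped. Of the 50-base words of SMURF2 transcripts, 1.72% also occur in another gene, and CEP95 on the opposite strand shares 167 exonic bases with it (adjusted p = 0.473 for CEP95, limma).

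SKIL (ENSG00000136603.13; chromosome 3, 170357678 to 170396835, plus strand), the corepressor SnoN, had 20.1 and 19.9 RPKM with TGF-β1 and 8.24 and 9.12 RPKM in controls. The 2.30-fold difference was well beyond the spread (log2 fold change 1.16, 95% interval 0.92 to 1.40, adjusted p = 0.00453, limma). SKI (ENSG00000157933.9; chromosome 1, 2228695 to 2310119, plus strand), the founding member of that family, had 22.8 and 21.4 RPKM with TGF-β1 and 23.4 and 19.6 RPKM in controls. The groups overlapped, and the log2 fold change of 0.04 (95% interval -0.23 to 0.32, adjusted p = 0.848, limma) turned negative under 3 of the scalings tried and without control replicate 2.

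The SKIL to SKI ratio was 0.880 and 0.926 with TGF-β1 and 0.353 and 0.464 in controls. The groups did not overlap, and an exact permutation test of 2 against 2 libraries gave p = 0.333 (two-sided), the smallest it can give. In RPKM the 2 transcripts were near parity with TGF-β1, and SKI was ahead in controls. Parity depends on the exon lengths used. By reads with TGF-β1, SKIL (649 and 727) lay above SKI (576 and 613). TGIF1 (ENSG00000177426.20; chromosome 18, 3411608 to 3459978, plus strand), a homeodomain corepressor, had 9.85 and 9.03 RPKM with TGF-β1 and 7.51 and 10.0 RPKM in controls. Both TGF-β1 values lay between the controls, and the log2 fold change was 0.11 (95% interval -0.29 to 0.52, adjusted p = 0.727, limma), negative under scaling to total reads and without control replicate 1. The ratio of TGIF1 to its relative TGIF2 was 0.528 and 0.527 with TGF-β1 and 0.441 and 0.560 in controls.

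**Figure D2:**
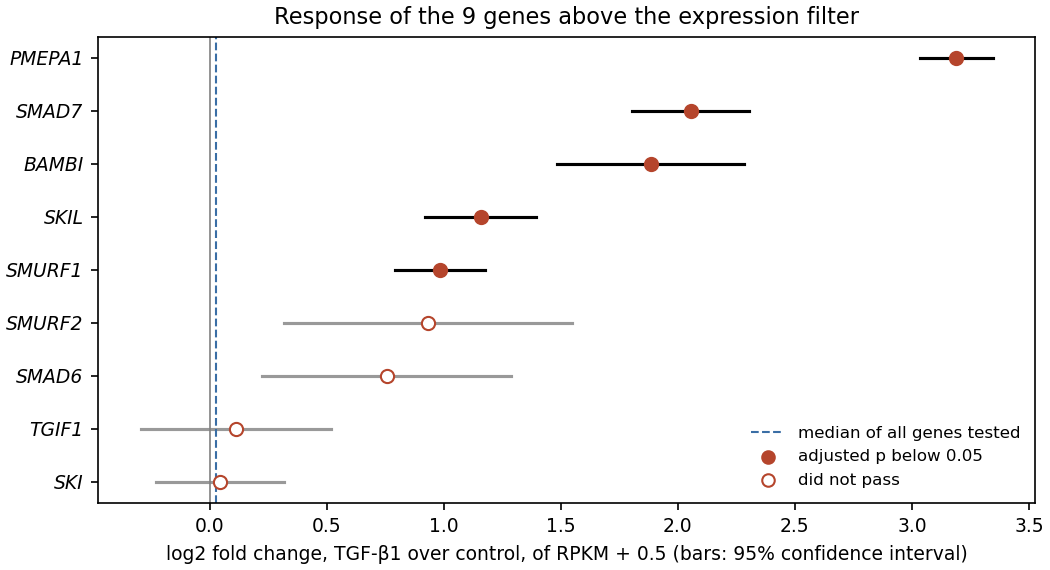
Log2 fold change, TGF-β1 over control, of the 9 regulators above the filter (x axis, limma on RPKM + 0.5), with 95% intervals as bars and filled points for an adjusted p below 0.05. PMEPA1 (3.19) stands apart, SMAD7 (2.05) and BAMBI (1.88) follow, SKIL (1.16) and SMURF1 (0.99) are near 1, and SKI (0.04) and TGIF1 (0.11) lie by the median of all genes tested (dashed line, 0.03).

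With TGF-β1 the means fell in the order PMEPA1 (329 RPKM), SMAD7 (37.6), SMURF1 (25.0), SKI (22.1), SKIL (20.0), TGIF1 (9.44), BAMBI (8.75), SMURF2 (4.91) and SMAD6 (2.44), with LDLRAD4 last on 1 and 3 reads. Only TGIF1 and BAMBI overlapped as neighbours in that order. In controls the order was PMEPA1 (35.6 RPKM), SKI (21.5), SMURF1 (12.4), TGIF1 (8.77), SKIL (8.68), SMAD7 (8.65), SMURF2 (2.39), BAMBI (2.01) and SMAD6 (1.23), with LDLRAD4 last on 0 reads. There TGIF1, SKIL and SMAD7 could not be separated by their spread, nor could SMURF2 and BAMBI. In RPKM SMAD7 thus stood in second place with TGF-β1 and in sixth place in controls. These orders depend on the exon length used for each gene. By reads with TGF-β1, SMAD7 (613 and 611) lay below SMURF1 (648 and 744) and SKIL (649 and 727).

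The inhibitory SMADs were then set against the SMADs they restrain. SMAD6 and SMAD7 together summed to 42.7 and 37.4 RPKM with TGF-β1 and 9.54 and 10.2 RPKM in controls. SMAD1, SMAD2, SMAD3, SMAD4, SMAD5 and SMAD9 together summed to 29.96 and 31.3 RPKM with TGF-β1 and 37.8 and 40.7 RPKM in controls. Inhibitory over signal-transducing SMADs came to 1.42 and 1.19 with TGF-β1 and 0.252 in both controls (exact permutation p = 0.333, two-sided, the smallest that 2 against 2 allows). In RPKM the inhibitory sum was thus the larger in the TGF-β1 libraries and the smaller in controls. The log2 difference between the groups was 2.38 from these sums, which rest mainly on SMAD7 and SMAD3, and 1.49 when each gene's log2 level counted alike. Which class stood higher depends on the exon length used for each gene. With TGF-β1, SMAD2 had 257 and 287 reads at 1.70 and 1.68 RPKM, and SMAD6 had 95 and 88 reads at 2.68 and 2.19 RPKM. By reads, SMAD7 (613 and 611) lay below SMAD3 (733 and 875) with TGF-β1.

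Of 5 signal-transducing SMADs tested, 1 fell and 0 rose (median log2 fold change -0.09). SMAD3, the most abundant of them, had 19.4 and 20.4 RPKM with TGF-β1 and 27.7 and 29.4 RPKM in controls (log2 fold change -0.51, adjusted p = 0.0227, limma). Of 14 alternatives, SMAD3 passed in 10. It did not pass without a variance trend (adjusted p = 0.115, limma). Nor did it pass when TGF-β1 replicate 1 (log2 fold change -0.47), TGF-β1 replicate 2 (-0.55) or control replicate 2 (-0.47) was left out. SMAD2, SMAD4, SMAD1 and SMAD5 did not pass, with log2 fold changes of 0.04, -0.16, -0.09 and 0.22, and SMAD9 had 1 to 3 reads per library. The signs of SMAD2 and SMAD1 turned in some alternatives. The SMAD7 to SMAD3 ratio was 2.06 and 1.72 with TGF-β1 and 0.302 and 0.305 in controls.

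Of 9 receptor genes tested, 2 rose and 1 fell (median log2 fold change 0.10). BMPR2, the type II BMP receptor, had 10.1 and 9.91 RPKM with TGF-β1 and 4.27 and 4.01 RPKM in controls (log2 fold change 1.18, adjusted p = 0.00733, limma). TGFBR2, the type II receptor that binds TGF-β, had 7.34 and 7.65 RPKM with TGF-β1 and 12.2 and 11.6 RPKM in controls (log2 fold change -0.63, adjusted p = 0.0235, limma). TGFBR1, the type I receptor that SMAD7 blocks, had 4.27 and 3.74 RPKM with TGF-β1 and 1.87 and 2.10 RPKM in controls (log2 fold change 0.86, adjusted p = 0.0458, limma). Neither TGFBR1 (log2 fold change 0.77 to 0.94) nor TGFBR2 (-0.67 to -0.60) passed with any 1 of the 4 libraries left out. TGFBR1 also missed the threshold with upper-quartile scaling (adjusted p = 0.0519, limma), total-read scaling (0.0743) and the replicate block (0.0794). Of 14 alternatives, TGFBR1 passed in 5 and TGFBR2 in 9. The BAMBI to TGFBR1 ratio was 2.13 and 2.25 with TGF-β1 and 1.19 and 0.854 in controls. ACVR1, a type I BMP receptor, did not pass (log2 fold change 0.63, adjusted p = 0.0627).

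Among 15 other genes whose products limit the pathway (phosphatases, ubiquitin ligases and SMAD or receptor binders), 0 rose and 1 fell, and the median log2 fold change was -0.06. The 1 was NEDD4L, a HECT ligase of the same family as the SMURFs, with 2.42 and 2.78 RPKM with TGF-β1 and 5.55 and 6.15 RPKM in controls (log2 fold change -1.04, adjusted p = 0.021, limma). It did not pass with any 1 library left out (log2 fold change -1.12 to -0.95), nor without a variance trend (adjusted p = 0.0551, limma). The SMURF1 to NEDD4L ratio was 10.3 and 9.06 with TGF-β1 and 2.24 and 2.01 in controls. Of 5 factors that oppose the inhibitors, 0 were called by limma and 0 had an unadjusted p below 0.05. RNF111 (Arkadia), the ligase that degrades SMAD7, SKI and SKIL, had 2.46 and 2.56 RPKM with TGF-β1 and 2.44 and 3.01 RPKM in controls, and the deubiquitinase USP11 had 44.7 and 47.6 RPKM with TGF-β1 and 41.7 and 43.8 RPKM in controls.

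Of 10 partners of the corepressors, 3 rose and 0 fell, with a median log2 fold change of 0.08. HIPK2, a nuclear kinase that binds corepressors, had 83.0 and 85.1 RPKM with TGF-β1 and 36.1 and 35.4 RPKM in controls (log2 fold change 1.22, adjusted p = 0.00176, limma). The deacetylase HDAC1 had 51.0 and 55.9 RPKM with TGF-β1 and 42.3 and 39.3 RPKM in controls (log2 fold change 0.39, adjusted p = 0.0496, limma). Its call held in 3 of 14 alternatives. The log2 fold change was 0.20 with quantile normalisation (adjusted p = 0.207, limma) and 0.21 with total-read scaling (0.179). HDAC1 also missed the threshold with upper-quartile scaling (0.0930) and with any 1 library left out (log2 fold change 0.32 to 0.45).

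Target genes of both branches were read beside the inhibitors. Of 8 SMAD3 targets, 6 rose and 0 fell (median log2 fold change 2.46). JUNB, an AP-1 subunit, had 288 and 299 RPKM with TGF-β1 and 21.6 and 21.7 RPKM in controls (log2 fold change 3.73, adjusted p = 0.000201, limma). TGFBI, a matrix protein, had 535 and 582 RPKM with TGF-β1 and 111 and 115 RPKM in controls (log2 fold change 2.30, adjusted p = 0.000507, limma). Of 4 BMP targets above the filter, 2 rose and 0 fell. ID1, an inhibitor of basic helix-loop-helix factors, had 15.7 and 22.5 RPKM with TGF-β1 and 7.30 and 9.23 RPKM in controls (log2 fold change 1.15, adjusted p = 0.0334, limma). ID3, of the same family, had 8.10 and 9.75 RPKM with TGF-β1 and 3.53 and 4.08 RPKM in controls (log2 fold change 1.13, adjusted p = 0.0167, limma). Of 14 alternatives, ID1 passed in 10 (log2 fold change 0.90 to 1.40) and ID3 in 12 (0.96 to 1.25). Neither passed without a variance trend. ID1 also did not pass when TGF-β1 replicate 2 or control replicate 1 was left out, nor ID3 when TGF-β1 replicate 2 was. ID2 and HEY1 did not pass (log2 fold changes -0.42 and 0.79).

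**Figure D3:**
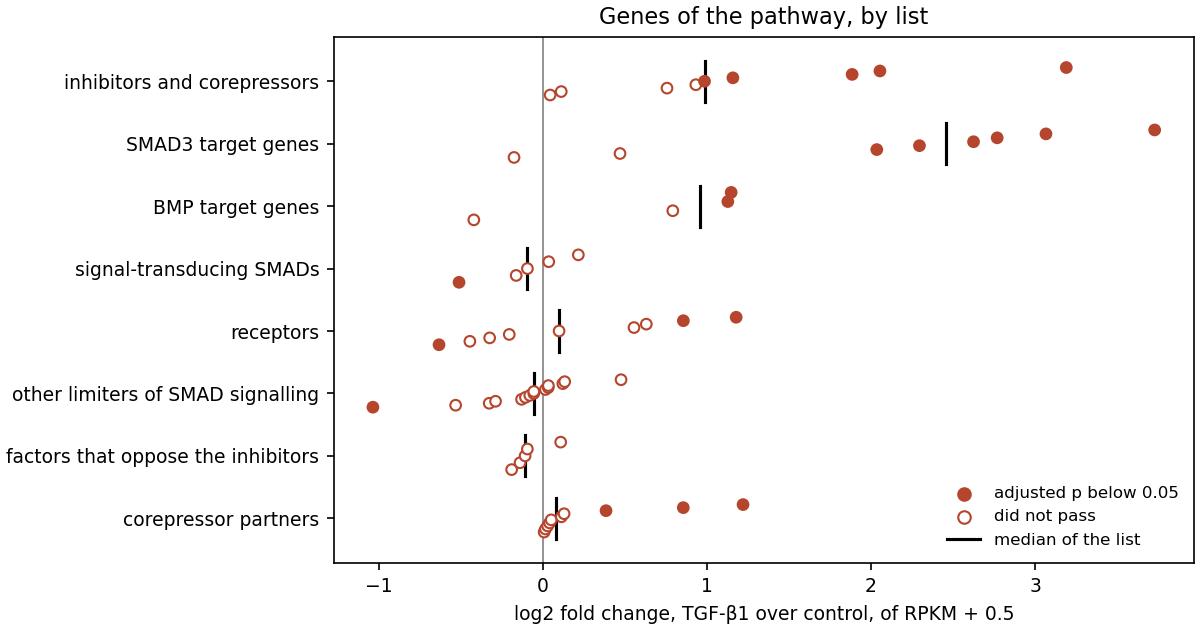
Log2 fold change, TGF-β1 over control, of each tested gene (points) of the inhibitors and corepressors and of 7 lists of partner and target genes, with filled points for an adjusted p below 0.05 and a bar at each list's median. The medians are 0.99 for the inhibitors and corepressors, 2.46 for SMAD3 targets, 0.96 for BMP targets and -0.11 to 0.10 for the 5 other lists.

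**Figure D4:**
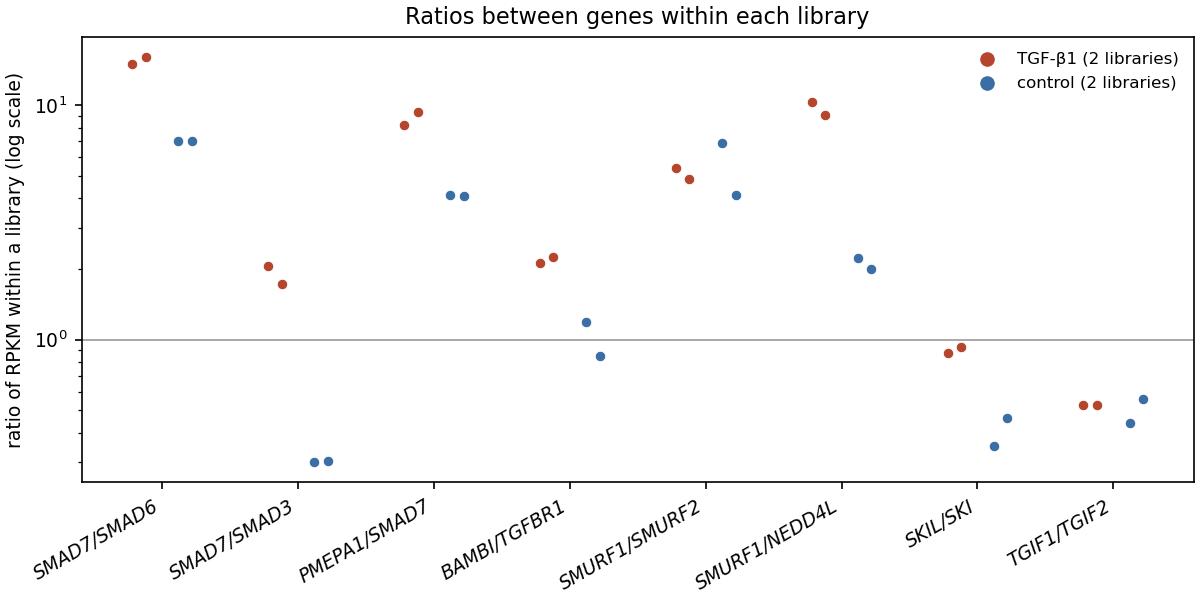
Ratio of RPKM between 2 genes within each library (log axis), for the 2 TGF-β1 libraries (red) and the 2 controls (blue); the grey line marks equal levels. SMAD7/SMAD3 crosses that line between the groups, at 2.06 and 1.72 with TGF-β1 and 0.302 and 0.305 in controls, while the groups overlap for SMURF1/SMURF2 and TGIF1/TGIF2. Where a ratio lies against the line depends on the exon lengths used.

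The genes whose values over the 4 libraries lay nearest to 3 of the regulators were found by Euclidean distance of log2(RPKM + 0.5), each gene centred on its own mean, among 6567 other genes averaging 5 RPKM or more. Over so few libraries this distance depends largely on the size of the response, and shared regulation was not tested. Nearest to SMAD7 were CHST11 (distance 0.08), BMF (0.08) and OLFM2 (0.10). Their log2 fold changes were 2.03, 2.08 and 2.11, against 2.05 for SMAD7. Among the nearest to PMEPA1 were INHBA (0.28) and VSTM4 (0.32), and nearest to SKIL were AMIGO2 (0.05), MFAP2 (0.06) and LYPD1 (0.06). BMF encodes a BH3-only protein that promotes apoptosis, INHBA a subunit of activin and MFAP2 a microfibril protein.

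The cell label was checked against tubule markers, of which 7 of 11 in the table passed the filter, 2 rose and 1 fell. Their summed level was 366 and 403 RPKM with TGF-β1 and 266 and 285 RPKM in controls, and its part in the responses above was not tested. The renal factor PAX8 had 15.5 and 14.7 RPKM with TGF-β1 and 44.8 and 42.2 RPKM in controls (log2 fold change -1.50, adjusted p = 0.00198, limma). KRT8, an epithelial keratin, had 167 and 183 RPKM with TGF-β1 and 71.9 and 80.6 RPKM in controls, and KRT18, its partner, had 138 and 160 RPKM with TGF-β1 and 109 and 111 RPKM in controls. The call of KRT18 (adjusted p = 0.0429, limma) held in 6 of 14 alternatives. Its log2 fold change of 0.43 was 0.16 with quantile normalisation (adjusted p = 0.231), and it did not pass under upper-quartile (0.0582) or total-read scaling (0.0859), nor without TGF-β1 replicate 2 (0.119), control replicate 1 (0.102) or control replicate 2 (0.0868). Of the proximal tubule genes, the brush border enzyme GGT1 had 18.9 and 16.8 RPKM with TGF-β1 and 19.6 and 20.4 RPKM in controls (adjusted p = 0.363, limma), while CUBN, AQP1 and ANPEP had 1 to 5 reads per library. Of 5 fibroblast markers in the table only LUM was tested (8.76 and 6.74 RPKM with TGF-β1, 12.1 and 12.9 RPKM in controls, adjusted p = 0.0567, limma). COL1A2 and the endothelial markers CDH5 and VWF had 0 reads in all 4 libraries, and of the immune markers CD14 alone passed the filter, with 5 to 13 reads.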

How the data were processed

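The deposited values are RPKM, made by the authors and held in a single table of 4 columns. Among the tools in the submitters' processing notes are STAR 2.7.1a, bcl2fastq 2.20.0.422 and DESeq2, and the build is hg38. Which of them gave the RPKM, the annotation release and the strand setting: not given in the sources used here. Symbols came from a gene name table (25312 of 25609 identifiers matched), and coordinates and exon lengths from GENCODE 29, where 93.1% of identifiers had the same version.

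Values times exon length fell on whole reads plus 0.5 within 0.01 read for 100% of those genes. Reads were recovered for 25474 genes, 1268 of them with a length inferred from the values. The library sizes behind the deposited RPKM were 0.898 and 0.866 times the recovered totals for the TGF-β1 libraries and 1.02 and 0.981 times for the controls, which raises the treated values relative to scaling by totals.

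The test was limma 3.58.1 (R 4.3.3; lmFit, eBayes with a variance trend) on log2(RPKM + 0.5) of genes averaging 0.5 RPKM or more, with Benjamini-Hochberg adjustment over all 16590 genes, after the procedure was tested on simulated data. The test has 2 residual degrees of freedom. Of changes put into the simulated data, it recovered 0% at a log2 size of 0.5, 10.6% at 1 and 29.7% at 2. Those shares come from 65, 66 and 64 changed genes among 16144 tested. That is far fewer than the 1513 called here, and recovery after adjustment depends on that number. The shares therefore do not measure recovery in these data. A gene that did not pass may still have changed. Poisson intervals cover counting error only. Alternatives changed the pseudocount, filter, scaling, variance trend, replicate block, libraries used and count model (limma-voom). All 10 regulators were named; from other lists the 3 called genes with the smallest p, or the smallest p where none was called, and further receptors, SMADs, BMP targets and RNF111. GGT1, CUBN, AQP1, ANPEP, COL1A2, CDH5 and VWF were named after their values were seen. The genes and lists were chosen with earlier results of these data known, and the ratios between genes after their values were seen. Some genes that this rule names are not reported here.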

Additional observations from a re-analysis of the deposited data

How the results depend on the processing

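PMEPA1, SMAD7, BAMBI, SKIL and SMURF1 passed in all 14 alternatives, and the count of regulators called was 5 to 7. SMAD6 passed with limma-voom (log2 fold change 0.93), and SMURF2 with limma-voom (0.99) and without control replicate 2 (leave-one-out range 0.63 to 1.23). The sign of SKI turned with quantile normalisation (-0.082), upper-quartile scaling (-0.015) and scaling by total recovered reads (-0.13), and leaving out 1 library gave -0.077 to 0.17. The sign of TGIF1 turned with scaling by total reads (-0.059), and leaving out 1 library gave -0.084 to 0.31. The cause was not tested. Over all genes the count of calls was 1513, against 977 without a filter, 424 without a variance trend, 3399 with limma-voom and 574 to 1138 with 1 library left out. The share of calls that were higher was 67.1% as deposited, 59.7% with upper-quartile scaling, 50.4% with quantile normalisation, 54.3% with limma-voom and 42.6% with scaling by total reads. The log2 ratio of inhibitory to signal-transducing SMADs, TGF-β1 over control, was 2.38 from summed RPKM and 1.49 from means of log2 values. Among other named genes that did not pass, USP11 turned with quantile normalisation (-0.057) and total reads (-0.070), SMAD2 with upper-quartile scaling (-0.011) and total reads (-0.10), and CD14 with upper-quartile scaling (-0.0023), total reads (-0.080) and limma-voom (-0.10). With 1 library left out, RNF111 ranged over -0.22 to 0.032, SMAD1 over -0.30 to 0.12, SMAD2 over -0.051 to 0.12 and CD14 over -0.39 to 0.46. With the replicate number as a block, 1344 genes and 5 regulators were called. The numbers do not pair the libraries by any label, and deviations of same-numbered libraries correlated at 0.0261 across genes. At this depth a gene such as LDLRAD4 could not be assessed.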
